A study of Oryctolagus cuniculus with 30 samples.

Results

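Epidermis from wounds that had just closed was compared with unwounded epidermis of the rabbit ear, on 8 of the 30 arrays of the series. The members are the 6 arrays titled as wound skin at day 0 and the 2 arrays titled as normal skin, which are all the unwounded arrays in the series. The animals were female rabbits of the New Zealand White breed, a standard laboratory rabbit. In the wound group a grid of shallow cuts had been made in the ear skin with a double-bladed scalpel, and the area lay under 1 layer of Tegaderm, a clear film that sticks to the skin, until it was covered by new epidermis 2 days after wounding. That moment is called day 0 here. The unwounded group is described as normal skin, and no film on it is mentioned, so wounding and the first film layer cannot be told apart. In both groups 0.5 M ammonium thiocyanate, applied for 30 min, freed the epidermis from the dermis. A 1-colour Cy3 labelling took in 400 ng of RNA. The other 22 arrays, which hold wounds left uncovered or put under 4 further layers of film for 3 or 5 days, shared in the estimate of the spread.

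Closure of a skin wound is carried out by keratinocytes, which leave the quiescent state at the wound edge, change their keratins and adhesion, migrate over the bed and divide behind the front. A newly closed epidermis is thicker than resting epidermis, differentiates abnormally and lacks a mature barrier. Epidermal cells at this stage also produce antimicrobial proteins and signals that draw immune cells. None of this could be followed by gene name in these arrays. Every probe of this custom rabbit design is described as unknown or unmapped. Each carries only the name of a clone, an assembled contig or a sequence entry, the last with the prefix gb at 889 probes. Markers of keratinocytes, dermis, vessels and immune cells could therefore not be checked, and the labelled tissue stands on the labels. In such bulk samples, fewer cells of a type and less RNA per cell cannot be told apart.

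The probes are single strands of 60 bases and their sequences were read from the deposited scanner files. No genome was used here, so they have no position or annotation. Each is written 5′ to 3′. The first set shows 4 of the probes whose levels rose most, since the sequence is the only identity they have.

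UF_Ocu_AF_101829: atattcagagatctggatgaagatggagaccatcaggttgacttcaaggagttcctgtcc

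UF_Ocu_AF_112455: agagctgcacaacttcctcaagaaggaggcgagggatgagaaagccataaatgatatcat

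UF_Ocu_AF_110525: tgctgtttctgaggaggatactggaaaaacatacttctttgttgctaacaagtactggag

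UF_Ocu_UN_117997: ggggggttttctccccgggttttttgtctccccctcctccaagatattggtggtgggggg

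The next sequence is the exact reverse complement of the last one and is a probe of its own, which makes this pair a reading of both strands of a single clone.

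UF_Ocu_UN_120330: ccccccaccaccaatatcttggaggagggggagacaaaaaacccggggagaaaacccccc

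A further pair is shown because both probes carry the same contig name and did not move together.

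UF_Ocu_AF_100831: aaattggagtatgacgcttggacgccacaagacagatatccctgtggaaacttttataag

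UF_Ocu_AF_100832: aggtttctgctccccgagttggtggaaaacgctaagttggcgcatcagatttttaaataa

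Among the probes whose levels fell, 2 measured on all 8 arrays are shown.

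UF_Ocu_AF_114396: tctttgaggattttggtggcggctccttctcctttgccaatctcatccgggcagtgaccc

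UF_Ocu_AF_106134: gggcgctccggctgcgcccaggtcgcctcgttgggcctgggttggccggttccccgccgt

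Stretches of 30 bases are shown from 5 further probes, with capitals marking the hexamer AATAAA, the usual signal for cleavage and polyadenylation near the end of an mRNA, when it is read on the printed strand.

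UF_Ocu_AF_101828, bases 20 to 49: agggagtaggtgAATAAAagtactcatgaa

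UF_Ocu_AF_104470, bases 31 to 60: ttgcccattatttAATAAAgaggatttgtc

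UF_Ocu_AF_104733, bases 31 to 60: gtatttcgctttgccttggatgaAATAAAa

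UF_Ocu_UN_118492, bases 25 to 54: tttaattcagtcAATAAAttttgttgctcc

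UF_Ocu_AF_113374, bases 19 to 48: agagatgctctcAATAAAtgatgtgcagaa

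Signal well above background was found at 39.7% to 47.7% of the 23369 probes on each of the 8 arrays, and the groups overlapped in this share. Unwounded array 2 stood apart. It was on slide 6 and scan day 1, shared with no wound array at day 0. Unwounded array 1, on slide 5, also shared no slide with these wound arrays. Array 2 differed from array 1 by more than 2-fold at 3266 of 12274 probes with a value on both. Array 1 was the higher of the pair at 2539 of these probes and array 2 at 727. The 2 unwounded arrays correlated across tested probes with r = 0.941, and pairs of wound arrays with r from 0.930 to 0.982. The correlation with the wound arrays was 0.912 to 0.933 for unwounded array 1 and 0.867 to 0.903 for unwounded array 2. Unwounded array 1 was scanned on the same day as wound array 1, and the other 5 wound arrays on a further day. Every call was for this reason checked against each unwounded array alone, and the single values are given for probes where the controls lay far apart. Which animal gave which array is not labelled, so p-values reflect the spread among these samples alone, which may be technical, and the number of arrays limits the precision.

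Of 12342 tested probes, 4598 (37.3%) passed an adjusted p of 0.05 in limma. Levels rose at 2107 (17.1%) and fell at 2491 (20.2%), so that 45.8% of the called probes were higher. With normexp background correction, another way of removing background from the same scans, 1732 rose and 1132 fell, or 60.5% higher, and the median change of all tested probes went from -0.02 to 0.395 on the log2 scale. The majority also turned with the 75th percentile taken over all probes (2355 higher, 2169 lower), with quantile normalization (2341 and 2255) and without unwounded array 1 (2579 and 2000). Which direction held more called probes therefore depended on the background correction, the scaling and the control. The median change was 1.2 among the rises and -1.34 among the falls. At least 2-fold rises numbered 1332 (10.8%) and falls 1814 (14.7%), at least 4-fold rises 335 and falls 488, and at least 16-fold rises 48 and falls 33.

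Against unwounded array 1 alone 2575 probes were called, and against array 2 alone 4579. A change is called held here where the probe was called against both arrays together and against each alone in one direction, with all 6 wound arrays on the same side of both unwounded arrays. This applied to 1886 probes (15.3% of those tested), 874 higher (7.08%) and 1012 lower (8.20%). Of these, 214 rises and 348 falls were at least 4-fold, and 40 rises and 28 falls at least 16-fold. Of 4585 called probes with a value against both unwounded arrays, 4573 had the same sign against each and 12 had opposite signs. Sign agreement in this set follows largely from calling on the mean of both controls, so it is given as a description. There were 664 probes called against array 1 only and 2681 against array 2 only.

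**Figure D1:**
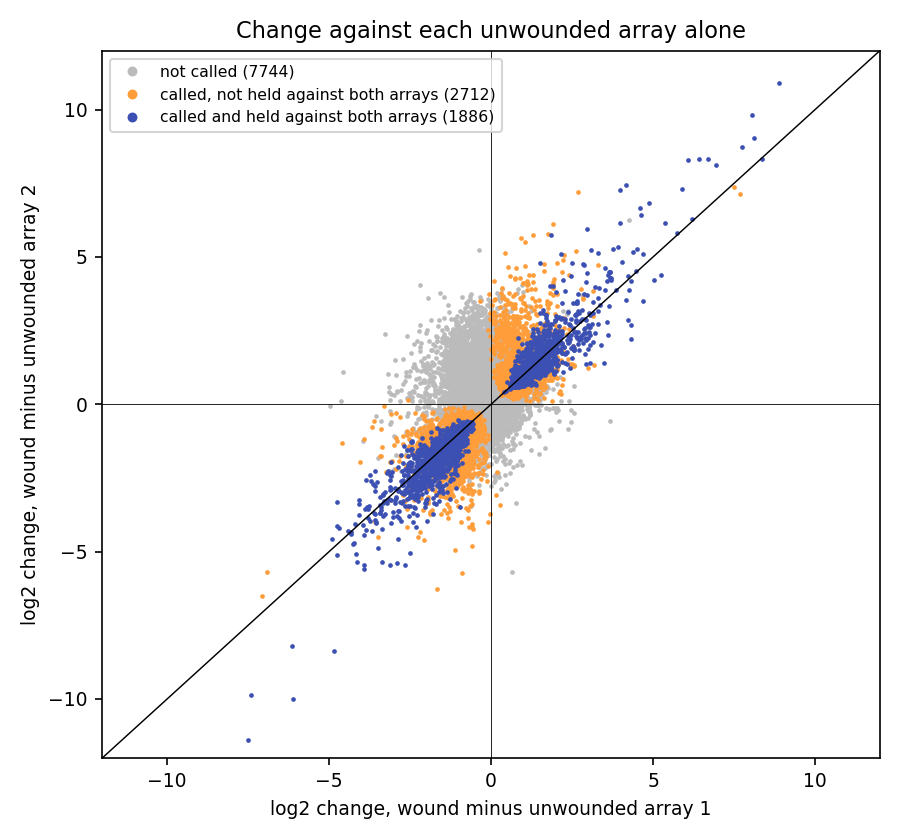
Log2 change of each tested probe against unwounded array 1 (horizontal) and unwounded array 2 (vertical), with the line of equal change. The 1886 held changes (blue) lie, by their definition, in the quadrants where both agree in sign. The 2712 other called probes (orange) spread farther from the line.

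The largest rise was at UF_Ocu_AF_101829, one of the pair of probes on its contig. Relative to the 75th percentile of each array, its log2 level was -5.37 and -7.37 on unwounded arrays 1 and 2, and 2.91, 3.50 and 4.38 as the lowest, median and highest of the 6 wound arrays. All wound arrays lay far above both unwounded arrays. Signal was well above background on 1 of 2 unwounded and 6 of 6 wound arrays. The log2 change was 8.90 against array 1. Against the mean of both controls, with array 2 set at its lowest signal well above background, the processed signal was at least 841-fold higher. Against array 1 alone the fold was smaller than this bound. The 841-fold bound did not hold with normexp background correction or with the authors' deposited values, where the log2 changes were 9.17 and 8.38. The other probe of the contig, UF_Ocu_AF_101828, was well above background on all 8 arrays and changed by 8.06 and 9.81.

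UF_Ocu_AF_112455 rose almost equally against both controls. Its level was -4.09 and -4.05 in unwounded epidermis and 3.87, 4.30 and 4.67 (lowest, median, highest) in the wound, measured on all 8 arrays. The change was 8.35 (SE 0.77, limma adjusted p = 1.63e-08), with means of -4.07 ± 0.03 (SD, n = 2) and 4.28 ± 0.31 (SD, n = 6). This probe combines a large rise with the closest pair of control values among the rises described here. UF_Ocu_AF_112456, from the same contig, rose by 6.24.

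Folds at probes with no unwounded signal are lower bounds. For these, each unwounded array was set at the higher of its own signal and its lowest signal among probes well above background. The values of the 2 arrays were then averaged. All bounds given here, of rises and of falls, refer to the mean of the 2 controls and not to either alone. UF_Ocu_AF_104471 lay at -8.32 and -9.25 in unwounded epidermis, not well above background on either array, and at -1.25, -0.73 and 1.64 in the wound. It was at least 86.7-fold higher (means -8.79 ± 0.66, SD, n = 2, and -0.20 ± 1.24, SD, n = 6, limma adjusted p = 8.79e-10). The other probe of its contig, UF_Ocu_AF_104470, was also called higher and was not well above background on either unwounded array. UF_Ocu_AF_110525 lay at -6.53 and -7.70 in unwounded epidermis, again not well above background, and at -1.33, -0.10 and 2.35 in the wound. It was at least 133-fold higher (means -7.12 ± 0.83, SD, n = 2, and 0.42 ± 1.45, SD, n = 6, limma adjusted p = 1.04e-08). UF_Ocu_AF_110526 of the same contig was also called higher and also lacked such a signal on both unwounded arrays. These bounds rest on the scanner's processed signal. With the authors' deposited values the log2 changes of UF_Ocu_AF_104471 and UF_Ocu_AF_110525 were 5.16 and 5.38, which are smaller folds than these bounds. With normexp background correction they were 6.65 and 6.58, a smaller fold than the bound at UF_Ocu_AF_110525 only. Both contigs spread widely among the wound arrays, and no wound array approached the unwounded level.

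The next rises were measured on both unwounded arrays. UF_Ocu_UN_121601 lay at -3.33 and -5.22 in unwounded epidermis and at 2.70, 3.07 and 3.46 in the wound, a change of 7.37 (SE 0.67, limma adjusted p = 1.45e-08). UF_Ocu_AF_101793 lay at -4.45 and -6.65 against 0.51, 1.20 and 3.34, a change of 7.19 (SE 0.64, limma adjusted p = 1.04e-08), and UF_Ocu_AF_101792 of the same contig rose by 5.52. In both, unwounded array 2 was the lower control, and the groups were far apart with either control.

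UF_Ocu_UN_117997 gives the reading of a single strand. Its level was -3.58 and -4.97 in unwounded epidermis and 1.77, 2.25 and 2.84 in the wound, a change of 6.59 (SE 0.73, limma adjusted p = 2.07e-07). Its exact reverse complement, UF_Ocu_UN_120330, was well above background on 0 of the 8 arrays and was not tested. Signal from this clone was thus read by the first probe of the pair and not by its complement. Over the array, 140 pairs of probes were exact reverse complements of each other, of which 17 pairs had both probes tested, 57 had 1 and 66 had none. At 20 of these pairs at least 1 probe was called, and in 14 of the 20 the partner was not tested. For scale, 37.3% of all tested probes were called, a share per probe and not per pair. Both probes were called in 2 pairs, each time in one direction.

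UF_Ocu_AM_114773 lay at -5.02 and -8.29 in unwounded epidermis and at -1.63, -0.80 and 0.08 in the wound. Only unwounded array 1 gave it a signal well above background. The change against that array was 4.15. Against the mean of both controls the level was at least 35.6-fold higher (means -6.65 ± 2.32, SD, n = 2, and -0.86 ± 0.64, SD, n = 6, limma adjusted p = 4.74e-06). Against array 1 alone the fold was smaller than this bound. With normexp background correction and with the authors' deposited values its log2 changes were 4.90 and 3.90, also smaller folds than this bound. A run of 37 of its bases is complementary to UF_Ocu_AF_103760, from the same clone, which changed by 0.26 (limma adjusted p = 0.641). Only the former moved past the threshold, and the difference between their changes was not tested. UF_Ocu_AM_114773 also shares a run of 14 bases, found on no other probe of the array, with UF_Ocu_UN_121601, which comes from another clone.

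UF_Ocu_AF_108490 lay at -4.88 and -6.82 in unwounded epidermis and between -0.31 and 0.35 in the wound (median -0.06), a change of 4.88 against array 1 and 6.82 against array 2. It was well above background on 1 of 2 unwounded arrays, and UF_Ocu_AF_108489 of the same contig, measured on all 8, rose by 5.63. UF_Ocu_AF_109724 was not well above background on either unwounded array (-6.26 and -7.04) and reached -1.72, -0.86 and 0.05 in the wound. It was at least 54.1-fold higher (means -6.65 ± 0.55, SD, n = 2, and -0.88 ± 0.66, SD, n = 6, limma adjusted p = 1.05e-06). With normexp background correction and with the authors' deposited values its log2 changes were 4.91 and 3.87, smaller folds than this bound. At both contigs the wound arrays lay well clear of the unwounded values.

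**Figure D2:**
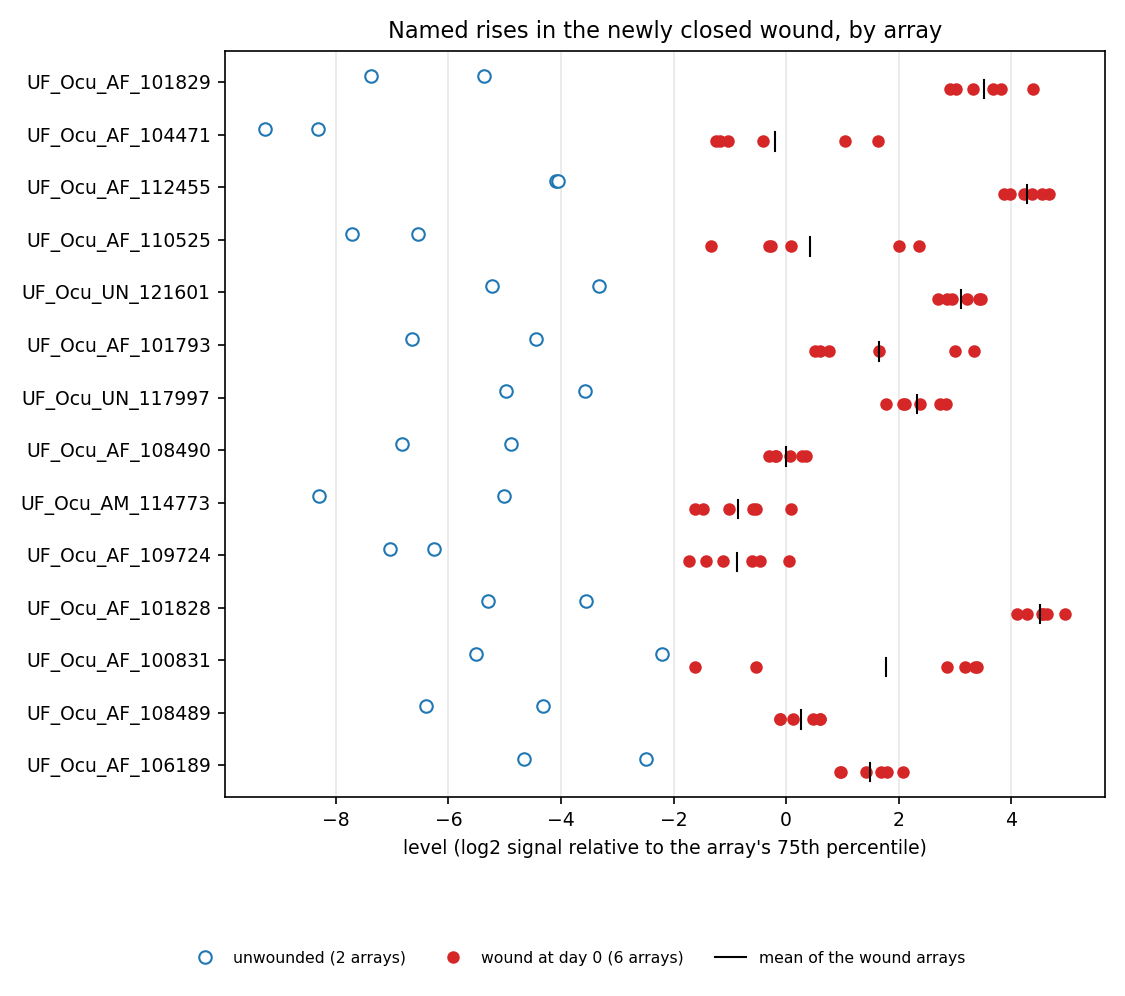
Log2 level on each array of the 14 named rises, which were ranked by size with 1 probe per contig in each list, relative to the 75th percentile of the array (horizontal axis), with open circles for the 2 unwounded arrays, filled circles for the 6 wound arrays and a bar for the wound mean. No wound array reaches an unwounded value at any of the 14 probes, as the rule for held changes requires. UF_Ocu_AF_100831 has the widest spread among the wound arrays.

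UF_Ocu_AF_100831 showed the widest wound spread among the named rises. Its level was -2.20 and -5.51 in unwounded epidermis and -1.62, 3.02 and 3.39 in the wound, so the lowest wound array lay only a little above the higher control. The change was 3.97 against array 1 (limma adjusted p = 0.0407), 7.28 against array 2, 5.63 against both (SE 1.09, limma adjusted p = 0.00022) and with scan day as a block 3.84 (limma adjusted p = 0.104). UF_Ocu_AF_100832, under the same contig name, was at 5.25 and 4.82 in unwounded epidermis and at 4.70, 4.84 and 5.38 in the wound, and changed by -0.11 (limma adjusted p = 0.755). UF_Ocu_AF_106189 also parted from its contig. It lay at -2.50 and -4.66 against 0.95, 1.55 and 2.07 and rose by 3.98 against array 1 and 6.15 against array 2, while UF_Ocu_AF_106188 changed by -1.11 (limma adjusted p = 0.00987).

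The 4 largest named falls had wide or distant values. Stretches of these probes resemble ribosomal RNA in a form other than the mammalian one, as judged from general knowledge and not by a search, so their sequences are not shown, and whether they report rabbit transcripts was not tested. UF_Ocu_AF_107910 was at 0.56 and 4.44 in unwounded epidermis and at -9.20, -8.71 and -3.05 in the wound, and was well above background on 2 of 6 wound arrays. With each wound array set no lower than its dimmest probe well above background, the fall from the mean of the controls was at least 255-fold (means 2.5 ± 2.74, SD, n = 2, and -6.95 ± 2.95, SD, n = 6, limma adjusted p = 8.84e-05). The other probe of its clone, UF_Ocu_AF_107909, was also called lower, again with 2 of 6 wound arrays well above background. UF_Ocu_AF_103486 was at 1.37 and 3.84 against -9.21, -7.28 and -1.28, also with 2 of 6 wound arrays well above background. It was at least 198-fold lower than the mean of the controls (means 2.61 ± 1.75, SD, n = 2, and -6.03 ± 3.41, SD, n = 6, limma adjusted p = 0.000393). With the authors' deposited values the log2 changes of UF_Ocu_AF_107910 and UF_Ocu_AF_103486 were -7.15 and -6.81, and with normexp background correction -7.76 and -7.20. Against unwounded array 1 alone they were -7.51 and -7.40. At each probe all of these are smaller falls than its bound. The 2 probes share a run of 13 bases found on no other probe of the array.

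UF_Ocu_AF_103099 was at -2.54 and 1.33 in unwounded epidermis and at -9.08, -8.63 and -8.26 in the wound, well above background on no wound array. It was at least 74.9-fold lower than the mean of the controls (means -0.61 ± 2.74, SD, n = 2, and -8.66 ± 0.27, SD, n = 6, limma adjusted p = 8.98e-07). The log2 change was -6.12 against array 1 alone, -5.265 with normexp background correction and -4.93 with the authors' deposited values. Each of these is a smaller fall than this bound. UF_Ocu_AF_106912 was at -0.04 and 2.02 against -6.67, -6.34 and -5.15, a change of -7.16 (SE 1.26, limma adjusted p = 7.56e-05). Of the wound arrays, 5 of 6 were well above background. In these 4 falls unwounded array 2 was the higher control. Their size therefore depended on the control. That their direction did not follows from the rule for held changes.

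Falls with closely matched controls were smaller. UF_Ocu_AF_114396 was at 1.40 and 1.73 in unwounded epidermis and at -4.39, -3.84 and -1.82 in the wound, measured on all 8 arrays. The change was -4.94 (SE 0.69, limma adjusted p = 4.20e-06), which is 30.6-fold. UF_Ocu_AF_107674 had the closest controls of the named falls, 0.48 and 0.56, against -4.66, -3.28 and -2.42, a change of -3.83 (SE 0.47, limma adjusted p = 7.71e-07), and UF_Ocu_AF_107673 of the same contig changed by -3.66. UF_Ocu_AF_109104 was at 0.77 and 0.52 against -3.87, -2.92 and -2.22, a change of -3.67 (SE 0.39, limma adjusted p = 1.11e-07). At each of the 3 the highest wound array stayed well below both controls.

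UF_Ocu_AF_106134, with G and C at 78.3% of its bases, was at 1.11 and 0.77 in unwounded epidermis and at -6.13, -4.45 and -0.44 in the wound. The change was -4.74 (SE 1.07, limma adjusted p = 0.000967), and with only the 8 arrays in the fit the adjusted p was 0.0596. The other probe of this clone, UF_Ocu_AF_106133, fell by 1.83 (limma adjusted p = 0.0464). The wound arrays were scattered here, from close to the controls to far below them. Wound arrays 1 and 6 were the highest, at -0.44 and -1.21, as they also were at UF_Ocu_AF_107910 and UF_Ocu_AF_103486. UF_Ocu_AF_104733 was less scattered, from -5.37 to -2.70 (median -3.83), against 1.68 on unwounded array 2, a change of -3.92 against array 1 and -5.60 against array 2. UF_Ocu_AF_104734 of the same contig was also called lower, with 4 of 6 wound arrays well above background.

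Several falls ended at background. UF_Ocu_AF_109680 was at -4.59 and -3.07 in unwounded epidermis and at -9.12, -8.46 and -8.10 in the wound, well above background on no wound array, and was at least 8.03-fold lower (means -3.83 ± 1.07, SD, n = 2, and -8.53 ± 0.36, SD, n = 6, limma adjusted p = 6.77e-07). UF_Ocu_UN_118492 was at -4.68 and -3.76 against -9.55, -8.72 and -8.62, again well above background on no wound array, and was at least 6.14-fold lower (means -4.22 ± 0.65, SD, n = 2, and -8.85 ± 0.35, SD, n = 6, limma adjusted p = 2.07e-07). Both lost the call with normexp background correction, with log2 changes of -1.90 and -1.73 (limma adjusted p = 0.0673 and 0.102). With the authors' deposited values the changes were -1.74 and -1.60, so neither bound held under these alternatives. UF_Ocu_AF_113374 was at -2.39 and -1.92 against -7.32, -6.73 and -5.84, and 2 of 6 wound arrays gave a signal well above background. It was at least 20.4-fold lower (means -2.16 ± 0.33, SD, n = 2, and -6.65 ± 0.49, SD, n = 6, limma adjusted p = 1.88e-06). Its log2 change was -2.82 with normexp background correction and -2.59 with the authors' deposited values, smaller falls than this bound.

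**Figure D3:**
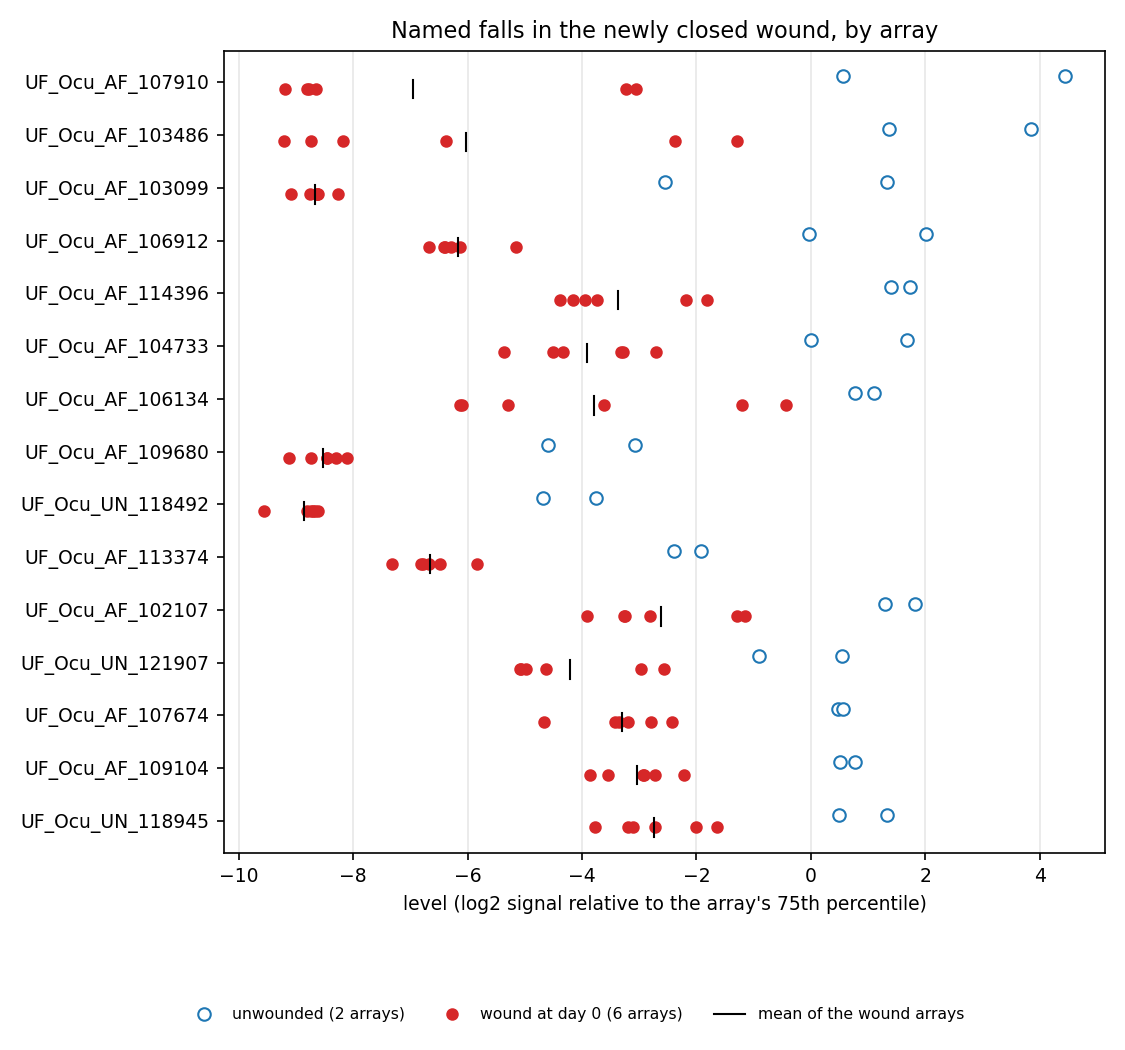
Log2 level on each array of the 15 named falls, chosen and drawn as for the rises. All 6 wound arrays lie below both unwounded arrays at each probe, as the rule for held changes requires. UF_Ocu_AF_107910, UF_Ocu_AF_103486 and UF_Ocu_AF_106134 spread most among the wound arrays.

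The remaining large falls measured on all 8 arrays were UF_Ocu_AF_102107, UF_Ocu_UN_121907 and UF_Ocu_UN_118945. UF_Ocu_AF_102107 was at 1.30 and 1.82 in unwounded epidermis and at -3.91, -3.03 and -1.15 in the wound, a change of -4.17 (SE 0.74, limma adjusted p = 7.56e-05). UF_Ocu_UN_121907 was at 0.55 and -0.91 against -5.08, -4.80 and -2.56, a change of -4.04 (SE 0.77, limma adjusted p = 0.000184). UF_Ocu_UN_118945 was at 1.33 and 0.49 against -3.76, -2.92 and -1.63, a change of -3.65 (SE 0.63, limma adjusted p = 5.86e-05). It shares 42 bases, in the complementary sense, with UF_Ocu_UN_119584 of the same clone, which fell by 1.56. At this clone both strands gave a fall.

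Over the 32 named probes, 18 full probe names, which hold the contig or clone and its orientation, had a second tested probe. In 16 of the 18 both probes were called in one direction, and the exceptions were the contigs of UF_Ocu_AF_100831 and UF_Ocu_AF_106189. At the contigs of UF_Ocu_AF_101829 and UF_Ocu_AF_108490 both probes were themselves chosen as held rises, so their agreement was fixed by the choice. The count is a description. UF_Ocu_AM_114773, whose clone has probes of the other orientation only, is not in this count. Over the whole array 4228 names had 2 tested probes. Both were higher in 622 and both lower in 711, 407 had 1 higher probe only, 466 had 1 lower probe only, 7 had 1 in each direction and 2015 had none called. The changes of the paired probes correlated with r = 0.848 (description over 4228 pairs, which share their arrays) and differed by a median of 0.26. Among the 7 opposed pairs, UF_Ocu_AF_102070 changed by 2.21 and UF_Ocu_AF_102071, under the same entry name, by -3.28, and both changes held against each control.

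Some probes went from background to signal or the reverse. There were 170 tested probes well above background on all 6 wound arrays and on neither unwounded array. Of these, 147 were called higher and 83 of the rises held, against 17.1% and 7.08% of all tested probes. In the other direction, 50 probes were well above background on both unwounded and no wound array. All 50 were called lower and 39 held, against 20.2% and 8.20% of all tested probes. These were chosen on the detection flags of the same scans, so the counts describe the probes and are not a test.

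The unwounded arrays disagreed most at 4 called probes well above background on both. UF_Ocu_AF_100076 was at -2.41 and -6.61 in unwounded epidermis and at -0.97, -0.71 and 0.17 in the wound, so the change was 1.90 against array 1 (limma adjusted p = 0.0588) and 6.11 against array 2 (limma adjusted p = 1.64e-06). UF_Ocu_UN_118334 was at -2.96 and 0.96 against -3.39, -3.03 and -2.74, and changed by -0.08 against array 1 (limma adjusted p = 0.918) and by -4.0 against array 2 (limma adjusted p = 1.47e-06). This call rested on unwounded array 2 alone, as array 1 lay within the range of the wound arrays. UF_Ocu_AF_112410 was at -1.42 and -5.33 against -0.60, 0.60 and 0.86, and changed by 1.84 and 5.74. The fourth, UF_Ocu_AF_107910, is described above. Over all probes at which the unwounded arrays differed by more than 2-fold (3266), 820 were called (25.1%, against 37.3% over all) and 145 held (4.44%, against 15.3%). Both rules used these controls, so the shares are a description.

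The gap between the controls followed the base composition of the probes. The median of unwounded array 1 minus array 2 was -0.06 at probes with up to 35% G and C and 1.15 at probes above 60%. Over the same classes the median change of the wound went from -0.15 to -0.50 against array 1 and from -0.15 to 0.76 against array 2. At GC-rich probes the direction of the median change therefore depended on which control was used. The level of GC-rich minus GC-poor probes was 0.03 on unwounded array 1, -1.22 on array 2 and between -0.84 and 0.10 on the wound arrays. The other array on slide 6, a covered wound at day 5, stood at -1.49. Slide and scan day cannot be told apart for these arrays. The share of tested probes that fell was 26.7% in the lowest GC class and 13.3% in the highest, against 20.2% over all, and the share that rose 17.3% and 10.3%, against 17.1%. With the median of each GC class subtracted on every array, a setting added after seeing the data, 2544 probes rose and 2430 fell.

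**Figure D4:**
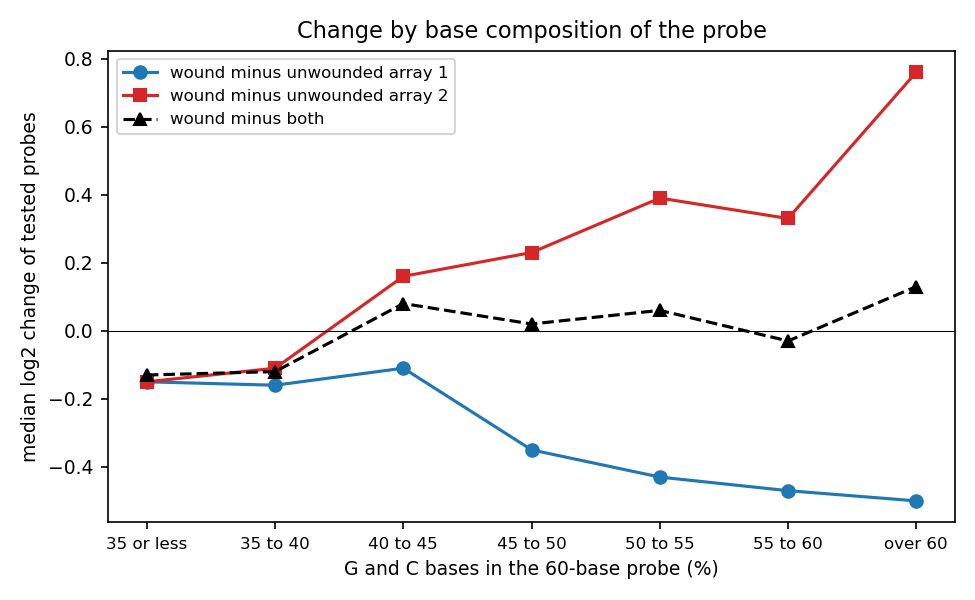
Median log2 change of tested probes (vertical axis) in classes of G and C content (horizontal axis, percent of the 60 bases), against unwounded array 1, array 2 and both. The lines lie together at -0.15 in the lowest class and end at -0.50 and 0.76 in the highest.

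The scan day shared by unwounded array 1 and wound array 1 allows a comparison within a day. Calls were made from unwounded array 2 against wound arrays 2 to 6 only, which gave 4698 probes with a value in the pair left out. In that pair 3617 of them (77%) changed in the same direction, namely 1910 of 2078 falls and 1707 of 2620 rises. Over all tested probes, 42.6% were higher in the wound array of the pair. The arrays of the later wounds still shared in the spread behind these calls. The filter and the set of probes used for scaling came from all 30 arrays, the pair among them. The falls were repeated on the separate scan day more often than the rises in counts. The difference was not tested.

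The design classes of the probes, as given in their names, differed in their share of changes. Among 9617 tested probes of class AF, 18.8% rose and 21.2% fell, with 8.39% and 8.62% held. Among 2569 of class UN, 10.9% rose and 16.3% fell, with 2.45% and 6.81% held. The sources used here do not say what the class letters stand for. The controls were also farther apart in class UN, with a median gap of 0.87 against 0.05 in class AF, and the part of this gap in the shares was not tested.

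Both forms of the polyadenylation hexamer, AATAAA and ATTAAA, were searched on the printed strand, where a probe could hold either or both. At least one was present in 10.9% of all 23369 probes of 60 bases and in 14.3% of those tested. It was present in 14.8% of the probes that rose and 19.0% of those that fell, and in 16.6% of held rises and 21.7% of held falls. On the opposite strand, read as TTTATT or TTTAAT, it was present in 6.49% of all probes, 6.93% of rises and 7.79% of falls. The median G and C content was 45.0% for rises and 41.7% for falls, so hexamer and base composition moved together, and their separate parts were not tested. A match is only a run of letters in the window of the probe.

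Levels of the held probes on the later arrays are given as a description. These arrays entered the choice of the probes through the shared spread, the filter and the scaling. The probes were chosen on their difference between day 0 and unwounded epidermis, so that difference is fixed by the choice. How much of the return at later days follows from the same choice was not tested. The median level of the 874 rises was -2.80 over the unwounded arrays and -1.08 in the wound at day 0. It was -1.95 in uncovered and -2.58 in covered wounds at day 3, and -2.14 and -2.44 at day 5. The 1012 falls stood at -1.67 in unwounded epidermis, -3.36 at day 0, -2.25 and -1.91 at day 3 and -2.0 and -1.87 at day 5. At day 3 the arrays of uncovered and covered wounds did not overlap in either set: the rises ranged from -2.08 to -1.46 uncovered and from -2.66 to -2.48 covered, and the falls from -2.91 to -2.11 and from -2.02 to -1.75. Covered wounds lay nearer to the unwounded level in both sets. All tested probes had group medians between -3.68 and -3.25.

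**Figure D5:**
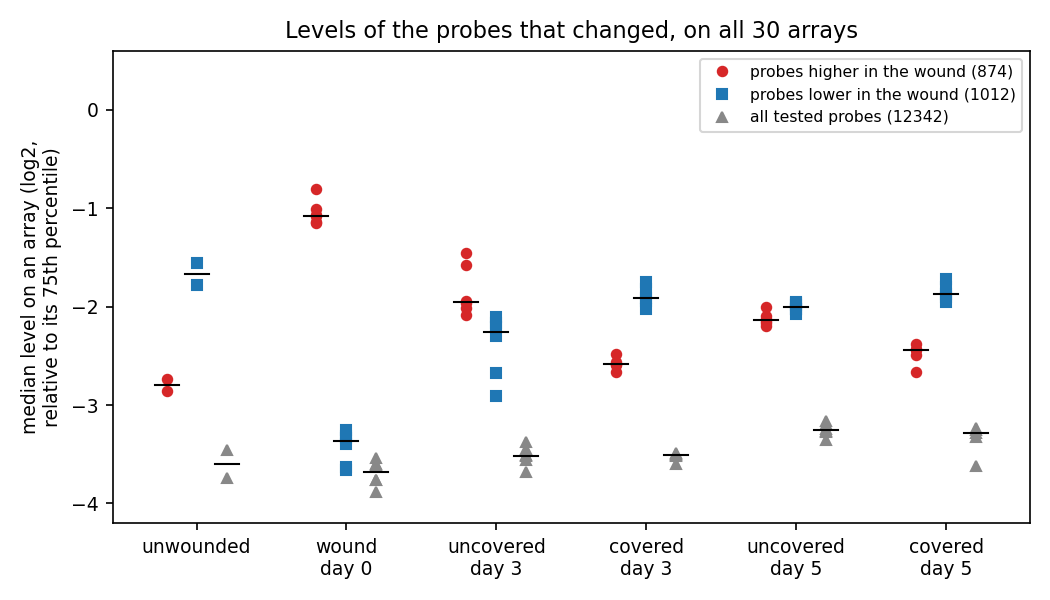
Median log2 level on each array (vertical axis, relative to the 75th percentile of the array) of the 874 probes that rose, the 1012 that fell and all 12342 tested probes, by group, with bars for the median over arrays. The 2 sets cross between unwounded epidermis and the wound at day 0, which follows from how they were chosen. At days 3 and 5 they come back toward the unwounded levels.

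Single probes followed different courses after day 0. UF_Ocu_AF_112455 at day 3 stood at 1.90 ± 0.80 (SD, n = 6) without cover and at -4.16 ± 1.57 (SD, n = 5) under cover. The covered mean was close to its unwounded mean of -4.07. UF_Ocu_AF_109724 was higher in uncovered wounds at day 3 (3.38 ± 0.46, SD, n = 6) than in the wound at day 0 (-0.88 ± 0.66, SD, n = 6), and low in covered wounds (-6.02 ± 1.85, SD, n = 5). UF_Ocu_AF_100831 was high at day 3 with and without cover, at 3.55 ± 0.52 (SD, n = 5) and 3.66 ± 0.43 (SD, n = 6).

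Among the falls, UF_Ocu_AF_107910 was well above background on no array at day 3, with means of -8.70 ± 0.34 (SD, n = 6) without cover and -8.16 ± 1.07 (SD, n = 5) under cover. Its day 5 means were -2.03 ± 2.04 (SD, n = 6) without cover and 0.29 ± 3.07 (SD, n = 5) under cover. UF_Ocu_AF_106134 followed a like course. Without cover it went from -4.93 ± 0.93 (SD, n = 6) on day 3 to 0.28 ± 1.01 (SD, n = 6) on day 5, and under cover from -4.48 ± 0.97 (SD, n = 5) to 0.15 ± 0.54 (SD, n = 5). UF_Ocu_AF_114396 was already back at 0.01 ± 0.37 (SD, n = 5) in covered wounds at day 3, against -0.89 ± 1.31 (SD, n = 6) in uncovered ones. These later values were not tested here.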

How the data were processed

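Per the file headers, spot intensity in the deposited scanner files had been background-subtracted by Feature Extraction 10.1.1.1, and other deposited columns hold flags of 0 or 1. The authors' deposited value table holds their own linear intensity, used as an alternative. The submitters' processing notes name limma. Control and outlier-flagged spots were left out, log2 signals of a probe's spots were averaged (20184 probes had 2 spots, 3185 had 1), and each array was scaled to its 75th percentile over 7446 probes, those flagged well above background on every array. The filter kept 12342 probes with such a flag on 2 or more arrays. All 30 arrays in 6 groups entered a limma 3.58.1 fit (lmFit, then eBayes, without a block, 2-sided) in R 4.3.3, with Benjamini-Hochberg adjustment. The fit was tested on simulated data. Other scalings, background corrections, filters, slide or scan-day terms and left-out arrays were tried.

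Probes were named by rank of held changes, with 1 probe per contig in each list: 10 rises and 10 falls whose brighter group was fully above background, 8 each measured and unsaturated on all 8 arrays, and the 4 called probes with the widest gap between controls. Lists of genes and markers could not be applied, as 0 probes had a gene name. The members and lists were chosen with earlier results of these data known.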

Additional observations from a re-analysis of the deposited data

Results flagged for a closer look

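Among the 32 named probes, 2 had a wound array far from the other 5. At UF_Ocu_AF_106912 wound array 3 was highest at -5.15, with the next at -6.13 and the lowest at -6.67. At UF_Ocu_UN_118492 wound array 6 was lowest at -9.55, with the next at -8.81 and the highest at -8.62, all of them not well above background. Chance gives such a gap in about 1 in 20 groups.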

How the results depend on the processing

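The 4598 called probes (2107 higher, 2491 lower) became 2864 with normexp background correction (1132 lower), 2636 with only the 8 arrays in the fit (1208 higher, 1428 lower), 2747 with array weights (1357 higher, 1390 lower) and 3033 without slide 6 (1285 higher). Without 1 array at a time the count ranged from 2575 to 4722, rises from 1148 to 2579 and falls from 1427 to 2604. The lowest counts were without unwounded array 2. Under the other settings the count stayed within 1.5 times. Normexp turned the sign of 271 called probes, none of which was called under it. The replicate block gave 4077 called probes. The groups share only 2 replicate numbers, and samples with the same number deviated with r = -0.178 and -0.315, so the numbers were not taken as pairs. Of 704 values of named probes under alternatives, 694 kept direction and call, 10 lost the call and 0 changed sign. The fold of a named probe was smaller by over 1.5 times at 24 of 32 with the authors' deposited values, 13 with normexp, 20 without slide 6 or without unwounded array 2, 16 with scan day and 14 with slide as a fixed block, and larger by as much at 20 without unwounded array 1. UF_Ocu_UN_118334 lost its call under 5 settings, among them without unwounded array 2. The cause of these shifts was not tested. Alternatives for gene lists were not run, as no probe had a gene name.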

Other observations

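The 6 wound arrays varied along 1 leading direction, which held 59.9% of their variance and placed arrays 3, 4 and 5 (66.3, 44.5 and 21.7) opposite arrays 1, 2 and 6 (-55.5, -16.0 and -61.1). The median SD over the wound arrays was 0.33 at probes that rose, 0.42 at probes that fell and 0.43 at probes not called.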
